A study of Arabidopsis thaliana with 6 samples.

Results

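The 146 genes described here are those carried on the mitochondrial chromosome of Arabidopsis thaliana, taken as every gene whose identifier starts with ATMG, out of 28775 features in the expression tables. Poly(A) RNA was sequenced from Col-0, the reference accession, and Can-0, another founder of the MAGIC mapping population. Each accession gave 1 library of whole seedlings (11 days old, grown on soil), 1 of roots (10 days old, grown on plates) and 1 of stage 12 floral buds (from soil-grown plants), under 16 h of light and 8 h of dark at 20 °C. No mutant, transgene or treatment is given in the labels, and all 6 libraries are labelled as a first biological replicate. With 1 library per group, an effect of tissue that differs between the accessions could not be tested. All p-values below therefore rest on an additive fit with 2 residual degrees of freedom, in which the disagreement of the accessions over the tissues is the only measure of spread. No sequencing run held more than 1 organ, so organ and run cannot be told apart. In comparisons with root, neither can organ and growth on plates. By their classes the genes were 24 genes or exon blocks of the respiratory chain, 5 for cytochrome c maturation, 7 for ribosomal proteins, the maturase gene MATR, the translocase gene MTTB, 3 ribosomal RNA genes and 105 others with no name in the sources used here. The last class is called open reading frames, although transfer RNA genes may be among them.

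The plant mitochondrial genome encodes a small part of the subunits of the respiratory chain, mostly from its membrane-embedded cores, while the nucleus encodes the rest of each complex. Its transcripts mature in the organelle: many cytidines are edited to uridines, introns are spliced, and NAD1, NAD2 and NAD5 are each joined from separately transcribed exon blocks. Plant mitochondria do not use a poly(A) tail to stabilise messages; there, added A residues mark RNA for decay, so a poly(A) library holds a selected sample of organelle RNA. A large copy of mitochondrial DNA also lies near the centromere of chromosome 2 in the nucleus.

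The libraries held 21805923 to 22903445 mapped reads, recovered from the step sizes of the deposited RPKM (reads per kilobase of gene model and per fixed number of mapped reads). At that depth 1 read on a 1 kb model was worth 0.0437 to 0.0459 RPKM. Counting intervals given below cover counting error only. Marker genes followed the tissue labels. The summed RPKM of 3 green-tissue markers was 10268 and 8285 in seedlings, 34.7 and 14.2 in root and 3305 and 2554 in bud, where pairs of values here and throughout give Col-0 first and Can-0 second. Root markers summed to 138 and 125 RPKM in root and to under 1 in the other libraries. The floral markers AP3, PI and AG summed to 457 and 573 RPKM in bud and the 2 pollen markers to 711 and 929, whereas of 3 tapetum markers A9 and MS1 were listed at 0 in every library and LTP12 stood at 0.161 and 1.33 in bud and at 0 elsewhere. Chloroplast-encoded genes took 6.37% and 6.60% of all RPKM in seedlings, 0.348% and 0.394% in root and 1.86% and 2.31% in bud. In whole organs, fewer cells of a type and less RNA per cell cannot be told apart.

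Mitochondrion-encoded genes were a small part of the poly(A) RNA in every organ, and smallest in seedlings. Their RPKM summed to 551 and 559 in seedlings, 1707 and 1688 in root and 1538 and 1631 in bud. As a share of all RPKM this was 0.0765% and 0.0781% in seedlings, 0.250% and 0.244% in root and 0.219% and 0.241% in bud. Both seedling libraries lay below all root and bud libraries, and the order was kept when chloroplast genes and the rRNA-derived feature AT2G01021 were left out of the total (0.0823% and 0.0842% in seedling against 0.227% to 0.254% elsewhere). Most of the sum came from the unnamed open reading frame ATMG00030 and, at some distance, ATP9.

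**Figure D1:**
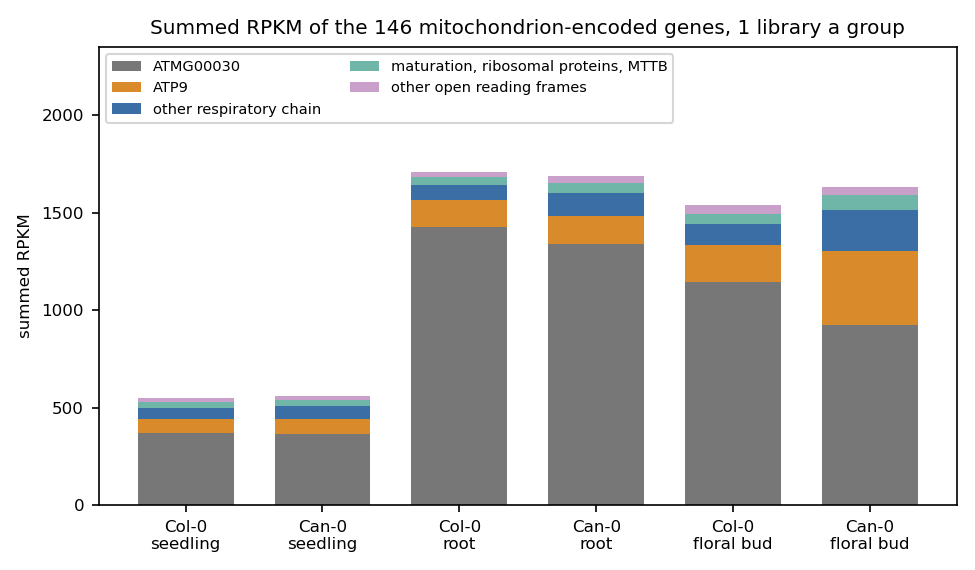
Summed RPKM of the 146 mitochondrion-encoded genes in each of the 6 libraries (vertical axis, linear from 0), stacked by gene or class. ATMG00030 fills most of every bar, 371 and 366 RPKM in seedling and 1427 in Col-0 root, while the ATP9 and respiratory-chain layers are tallest in Can-0 floral bud.

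ATMG00030 stood at 371 and 366 RPKM in seedlings, 1427 and 1339.6 in root and 1145 and 922 in bud. It made up 67.4% and 65.4% of the mitochondrial sum in seedlings, 83.6% and 79.4% in root and 74.5% and 56.5% in bud. The tissues did not overlap, root being highest and seedling lowest in both accessions. On the log2(RPKM + 1) scale used for all differences below, seedling was lower than root by -1.90 ± 0.16 (SE of the fit, limma adjusted p = 0.000872) and bud was higher than seedling by 1.48 ± 0.16 (limma adjusted p = 0.00328). The bud and root difference of -0.43 ± 0.16 did not pass the threshold of 0.05 (limma adjusted p = 0.0733). Its gene model is 324 bases long. RefSeq annotates 4 open reading frames of that length in the mitochondrial genome, of which ORF107B and ORF107G are tied to other identifiers, which leaves ORF107A and ORF107C; the sources used here do not say which of them ATMG00030 is. They are shown because the difference between them bears on what the most abundant mitochondrial row could be counting: 185 of the 324 bases of ORF107A lie, on the opposite strand, inside the gene of the large ribosomal RNA (rrn26, 3169 bases), and ORF107C has no such overlap. Of the 36-base windows, 40.5% of those in ORF107A and 100% of those in ORF107C also occur on a nuclear chromosome. The row ATMG01040, whose model also has 324 bases, was not tied to a frame either. RefSeq's notes name chromosome 2 counterparts for ATMG01040 (AT2G07599 and the pseudogene AT2G07664) and none for ATMG00030. Of the 36-base windows, 25.3% in ORF107A and 100% in ORF107C lie in nuclear exons or pseudogenes. The notes do not name a frame for either row. The first 300 bases of ORF107A and ORF107C follow, from RefSeq's TAIR10.1 assembly. They run 5′ to 3′ on each frame's own strand (plus for ORF107A, minus for ORF107C), with capitals where ORF107A overlaps rrn26.
ORF107A: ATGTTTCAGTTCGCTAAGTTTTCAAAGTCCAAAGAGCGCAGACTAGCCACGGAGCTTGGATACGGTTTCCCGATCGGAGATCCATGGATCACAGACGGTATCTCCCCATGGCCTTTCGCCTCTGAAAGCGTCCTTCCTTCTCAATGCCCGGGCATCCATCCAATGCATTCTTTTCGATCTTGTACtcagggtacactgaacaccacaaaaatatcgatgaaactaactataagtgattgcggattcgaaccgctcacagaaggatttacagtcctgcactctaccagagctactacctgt
ORF107C: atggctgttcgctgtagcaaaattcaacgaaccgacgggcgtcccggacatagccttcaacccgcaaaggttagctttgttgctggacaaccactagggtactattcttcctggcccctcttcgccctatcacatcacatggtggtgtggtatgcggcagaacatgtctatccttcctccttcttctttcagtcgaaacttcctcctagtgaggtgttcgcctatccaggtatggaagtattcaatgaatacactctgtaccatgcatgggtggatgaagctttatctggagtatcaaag
The rows of the ribosomal RNA genes themselves, RRN26, RRN18 and RRN5, were listed at 0 in all 6 libraries. Whether the submitters' counting used the strand of the reads is not given in the sources used here, so the part of ribosomal RNA in the ATMG00030 values was not tested.

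Without ATMG00030 the sums were 179.8 and 193 RPKM in seedlings, 279.5 and 349 in root and 393 and 709 in bud, so that bud, not root, was highest in both accessions. ATP9 took 38.2% to 53.8% of this remainder. With both left out, the other genes summed to 109 and 119 RPKM in seedlings, 143 and 206 in root and 206 and 328 in bud. Can-0 was above Col-0 in each tissue in these last sums. Can-0 root and Col-0 bud had nearly equal values.

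Of the 146 genes, 62 were listed at 0 in all 6 libraries, 110 stayed under 1 RPKM in all of them and 22 reached 1 RPKM in every library. At least 1 RPKM in at least 2 libraries, the condition for testing, was met by 34 of the 146 (23.3%), against 20830 of all 28775 features (72.4%). Respiratory-chain genes were measured far more often than open reading frames: 16 of 24 were tested, and 13 of 24 reached 1 RPKM everywhere. Of the 105 open reading frames, 92 stayed under 1 RPKM in every library, 48 were listed at 0 throughout, and 11 were tested (10.5%). Since a gene that is high in 1 tissue only could pass that filter through it, counts over the 34 are counts over genes that passed, not over all 146. No gene was at or above 1 RPKM in every library of one accession and under 0.1 RPKM in every library of the other.

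**Figure D2:**
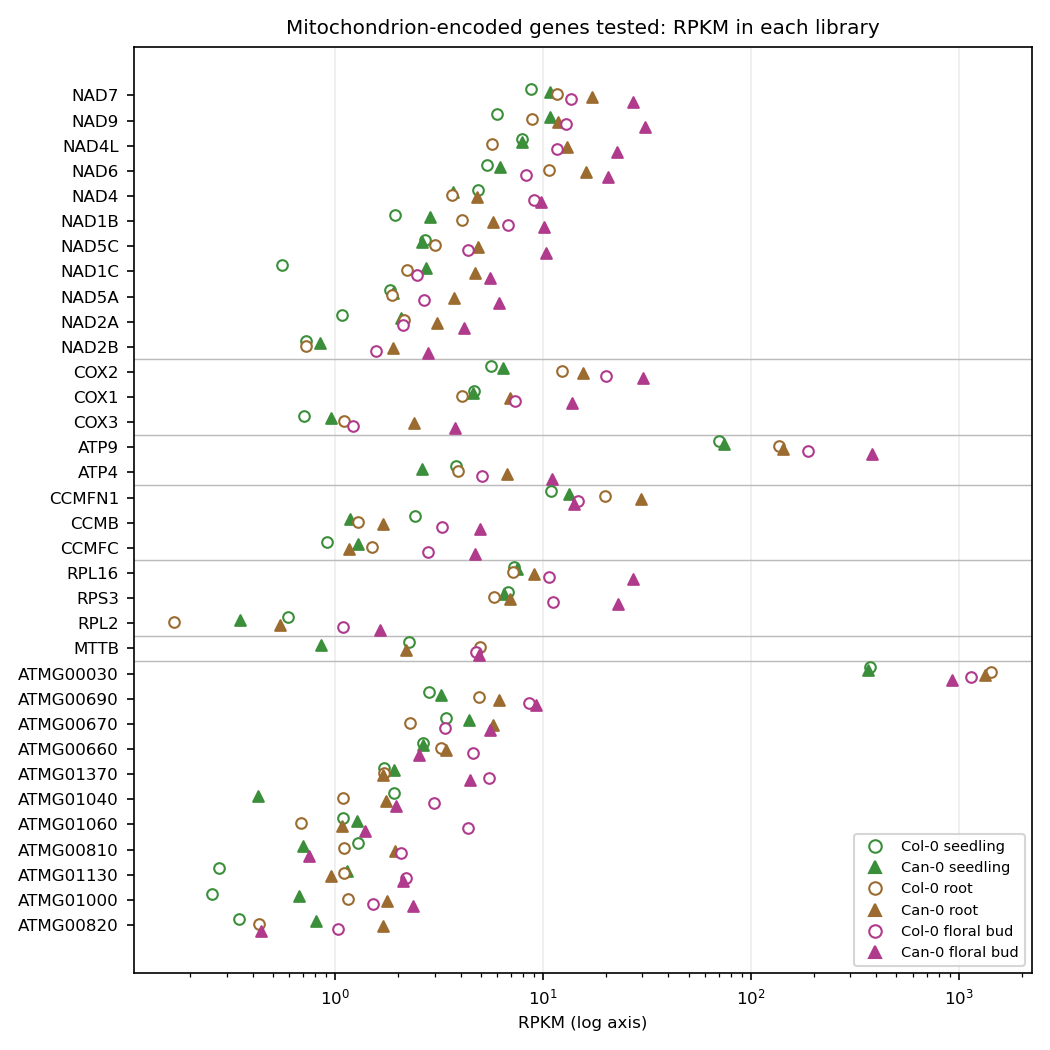
RPKM (horizontal axis, logarithmic) of the 34 tested mitochondrion-encoded genes in each library, with open circles for Col-0, filled triangles for Can-0 and colour for tissue, in blocks from complex I at the top to open reading frames at the bottom. In most named genes the Can-0 floral bud triangle is the rightmost point, as for NAD9 at 30.8 RPKM, whereas for CCMFN1 and ATMG00030 the root points are.

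Complex I (NADH dehydrogenase) takes electrons from NADH and pumps protons, and the organelle encodes its membrane core and part of its peripheral arm. NAD9, a subunit of the peripheral arm, stood at 6.01 and 10.8 RPKM in seedlings, 8.86 and 11.8 in root and 12.8 and 30.8 in bud. NAD7, its neighbour in that arm, stood at 8.69 and 10.8 in seedlings, 11.6 and 17.1 in root and 13.5 and 26.9 in bud. For NAD9 both bud libraries were above all others, whereas for NAD7 Can-0 root exceeded Col-0 bud. Bud was higher than seedling by 1.20 ± 0.23 for NAD9 (limma adjusted p = 0.0149) and by 0.91 ± 0.19 for NAD7 (limma adjusted p = 0.0206). Against root, NAD9 was higher in bud by 0.90 ± 0.23 (limma adjusted p = 0.0259), and NAD7 differed by 0.41 ± 0.19 (limma adjusted p = 0.133).

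Among the membrane subunits, which form the proton-pumping arm, NAD4 stood at 4.84 and 3.67 RPKM in seedlings, 3.65 and 4.81 in root and 9.03 and 9.75 in bud. Both bud libraries were above all others, and the accessions were close in bud. NAD4 was higher in bud than in seedling by 0.99 ± 0.21 (limma adjusted p = 0.0200) and than in root by 1.00 ± 0.21 (limma adjusted p = 0.0146). NAD6 had another order, with 5.36 and 6.16 RPKM in seedlings, 10.6 and 16.1 in root and 8.29 and 20.5 in bud. Both of its seedling libraries were below all root and bud libraries, and root and bud overlapped. NAD6 was lower in seedling than in root by -1.06 ± 0.28 (limma adjusted p = 0.0270) and higher in bud than in seedling by 1.07 ± 0.28 (limma adjusted p = 0.0352). NAD4L stood at 7.87 and 7.87 RPKM in seedlings, 5.68 and 13.0 in root and 11.7 and 22.7 in bud. Its root libraries lay on either side of the seedling ones, and none of its differences passed the threshold (bud minus seedling 0.97 ± 0.29, limma adjusted p = 0.0547).

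The genes assembled from separate exon blocks were low, and each block is its own row. For NAD1, block B stood at 1.94 and 2.86 RPKM in seedlings, 4.04 and 5.76 in root and 6.73 and 10.099 in bud, and block C at 0.556 and 2.74, 2.22 and 4.67, and 2.48 and 5.54. In block B the tissues did not overlap, and it was lower in seedling than in root by -0.79 ± 0.15 (limma adjusted p = 0.00979) and higher in bud than in seedling by 1.46 ± 0.15 (limma adjusted p = 0.0029). Block A of NAD1 was listed at 0 in all libraries, although a complete message needs all blocks. NAD2 blocks A and B reached 4.14 and 2.79 RPKM in their highest library, Can-0 bud, from 1.07 and 0.719 in Col-0 seedling. Both rose in bud over seedling, by 0.67 ± 0.17 for block A and 0.81 ± 0.22 for block B (limma adjusted p = 0.0360 and 0.0424). For NAD5, block A ranged from 1.83 RPKM in Col-0 seedling to 6.09 in Can-0 bud and block C from 2.62 in Can-0 seedling to 10.3 in Can-0 bud. Block C rose in bud over seedling by 1.09 ± 0.30 (limma adjusted p = 0.0404), and block A differed by 0.83 ± 0.27 (limma adjusted p = 0.0652). NAD5B, a block of 22 bases in RefSeq, was listed at 0, and NAD3 did not exceed 0.122 RPKM in any library.

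Complex IV (cytochrome c oxidase) passes electrons to oxygen. COX2, the subunit that takes electrons from cytochrome c, stood at 5.59 and 6.38 RPKM in seedlings, 12.3 and 15.6 in root and 20.1 and 30.2 in bud. The tissues did not overlap and Can-0 was the higher accession in each. COX2 was lower in seedling than in root by -1.09 ± 0.15 (limma adjusted p = 0.00389), higher in bud than in seedling by 1.88 ± 0.15 (limma adjusted p = 0.0016) and higher in bud than in root by 0.79 ± 0.15 (limma adjusted p = 0.0111). COX1, which holds the site of oxygen reduction, stood at 4.63 and 4.57 RPKM in seedlings, 4.07 and 6.89 in root and 7.32 and 13.7 in bud. Here seedling and root overlapped, and only bud stood apart, by 0.98 ± 0.25 over seedling (limma adjusted p = 0.0328) and 0.81 ± 0.25 over root (limma adjusted p = 0.0454). COX3 was lower, from 0.702 RPKM in Col-0 seedling to 3.75 in Can-0 bud, and none of its differences passed (bud minus seedling 0.83 ± 0.27, limma adjusted p = 0.0621). COB, the apocytochrome b of complex III and its only mitochondrion-encoded subunit, was listed at 0 in all 6 libraries.

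ATP9 encodes the small subunit that makes up the rotating ring of ATP synthase in the membrane. It stood at 70.4 and 73.8 RPKM in seedlings, 137 and 142 in root and 187 and 381 in bud. The accessions were close in seedling and in root and far apart in bud. ATP9 rose in bud over seedling by 1.87 ± 0.28 (limma adjusted p = 0.008) and over root by 0.93 ± 0.28 (limma adjusted p = 0.043), and was lower in seedling than in root by -0.94 ± 0.28 (limma adjusted p = 0.04). Its coding sequence, with the 225 bases of RefSeq's TAIR10.1 on the minus strand, is shown with capitals at 4 of the 5 cytidines that RefSeq annotates as edited, leaving out the site it marks as of minor frequency, since this is the second most abundant mitochondrial row.
ATP9: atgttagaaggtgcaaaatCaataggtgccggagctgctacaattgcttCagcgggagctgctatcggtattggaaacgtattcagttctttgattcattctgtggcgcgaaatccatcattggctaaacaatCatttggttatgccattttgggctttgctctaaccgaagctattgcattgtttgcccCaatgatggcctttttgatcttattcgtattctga
The submitters' gene model of ATP9 was 504 bases long, so bases outside this coding sequence enter its RPKM. ATP4, a stalk subunit, stood at 3.82 and 2.61 RPKM in seedlings, 3.89 and 6.71 in root and 5.07 and 11.0 in bud, with Can-0 higher in root and bud and lower in seedling, and none of its differences passed (bud minus seedling 1.03 ± 0.37, limma adjusted p = 0.0827). The remaining subunits stayed under 1 RPKM: ATP1 and ATP8 were listed at 0, the ATP6-1 copy of subunit a reached 0.274 RPKM at most, and the ATP6-2 copy 0.957.

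The ATP6-2 row was lower in Can-0. It held 30 reads in Col-0 against 6 in Can-0 seedling, 22 against 8 in root and 27 against 2 in bud. Col-0 was higher in each tissue, and the 3 ratios of Can-0 to Col-0 per mapped read were 0.208 (95% counting interval 0.0706 to 0.507), 0.360 (0.138 to 0.839) and 0.0765 (0.00881 to 0.304). The gene stayed under 1 RPKM throughout and was not in the fit. The other copy, ATP6-1, was listed at 0.0334 and 0.174 RPKM in seedlings, 0.167 and 0.264 in root and 0.166 and 0.274 in bud. These values lie near the floor, as 1 read on a 1 kb model was worth 0.0437 to 0.0459 RPKM. The reads of ATP6-1 were not recovered, so it has no counting interval and an opposite order of the accessions is not shown. Of its 36-base windows 100% occur on a nuclear chromosome and 64.6% again in the mitochondrial genome. Of the 36-base windows of the ATP6-2 coding sequence 71.5% occur again in the mitochondrial genome and also on a nuclear chromosome, so part of the reads of the copies cannot be told apart. The ATP6-2 model of 1385 bases was longer than the 1050-base coding sequence that RefSeq gives for subunit a.

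Cytochrome c maturation proteins attach haem to cytochromes c and c1. CCMFN1, part of the haem lyase, stood at 10.9 and 13.3 RPKM in seedlings, 19.8 and 29.4 in root and 14.7 and 14.1 in bud. It was the only tested gene that was called lower in bud than in root (-0.70 ± 0.18, limma adjusted p = 0.0269), and it was lower in seedling than in root by -0.95 ± 0.18 (limma adjusted p = 0.0104). CCMFC, another part of the haem lyase, stood at 0.910 and 1.28 RPKM in seedlings, 1.49 and 1.16 in root and 2.80 and 4.69 in bud, and CCMB, the membrane part of an ABC transporter, at 2.42 and 1.18, 1.28 and 1.69, and 3.24 and 4.95. In these genes bud stood above the other organs. Bud exceeded root by 1.00 ± 0.24 for CCMFC and 1.02 ± 0.32 for CCMB (limma adjusted p = 0.0235 and 0.0488). CCMC was listed at 0 and CCMFN2 stayed at or under 0.285 RPKM.

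Among the ribosomal protein genes, RPS3 stood at 6.74 and 6.45 RPKM in seedlings, 5.79 and 6.92 in root and 11.1 and 22.8 in bud. RPL16 stood at 7.20 and 7.47 in seedlings, 7.11 and 8.97 in root and 10.7 and 27.1 in bud. Their seedling and root libraries lay within a narrow range and only the buds stood apart, and in both genes the Can-0 bud was well above the Col-0 bud. RPS3 rose in bud over seedling by 1.16 ± 0.28 and over root by 1.21 ± 0.28 (limma adjusted p = 0.0289 and 0.0200), and RPL16 over seedling by 1.12 ± 0.33 (limma adjusted p = 0.048). The end of RPS3 and the start of RPL16 overlap on the same strand in RefSeq, so reads there cannot be assigned to either alone. RPL2 was near the detection limit, from 0.168 RPKM in Col-0 root to 1.64 in Can-0 bud. It reached 1 RPKM only in the bud libraries (1.08 and 1.64), so it passed the filter through bud alone. RPL5, RPS4, RPS7 and RPS12 were listed at 0. MTTB, a component of a membrane protein translocase, stood at 2.26 and 0.852 RPKM in seedlings, 4.97 and 2.18 in root and 4.73 and 4.88 in bud. It was the only named gene in the fit with a negative accession difference (-0.56 ± 0.24, limma adjusted p = 0.328), and it rose in bud over seedling by 1.24 ± 0.29 (limma adjusted p = 0.0265). MATR, the intron-encoded maturase, was listed at 0.

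Open reading frames other than ATMG00030 were low, and only a few differed between organs. ATMG00690 stood at 2.81 and 3.23 RPKM in seedlings, 4.89 and 6.10 in root and 8.54 and 9.25 in bud. It followed the organ order of COX2, with a rise in bud over seedling of 1.30 ± 0.15 (limma adjusted p = 0.00382) and a lower level in seedling than in root of -0.69 ± 0.15 (limma adjusted p = 0.0150). ATMG01370 stood at 1.71 and 1.91 in seedlings, 1.71 and 1.69 in root and 5.47 and 4.44 in bud, flat outside the bud, and rose in bud by 1.08 ± 0.18 over seedling and 1.14 ± 0.18 over root (limma adjusted p = 0.0102 and 0.00581). ATMG01000 rose from 0.256 and 0.665 RPKM in seedling to 1.15 and 1.77 in root and 1.52 and 2.36 in bud, by 1.01 ± 0.16 in bud over seedling (limma adjusted p = 0.00961).

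The other 7 tested frames were called in no comparison of organs. ATMG00670 stood at 3.41 and 4.38 RPKM in seedlings, 2.29 and 5.75 in root and 3.38 and 5.51 in bud, with Can-0 above Col-0 in each organ. ATMG00660 stood at 2.65 and 2.65, 3.24 and 3.40, and 4.57 and 2.51, and ATMG01060 at 1.09 and 1.27, 0.681 and 1.08, and 4.32 and 1.39. In the last of these the Col-0 bud alone stood apart. In ATMG01130 and ATMG01040 both bud libraries were above all others (bud minus seedling 0.93 ± 0.27 and 0.75 ± 0.37, limma adjusted p = 0.0503 and 0.167). ATMG01040, ATMG00810, ATMG01130 and ATMG00820 ranged from 0.275 RPKM (ATMG01130, Col-0 seedling) to 2.97 (ATMG01040, Col-0 bud), which is 2 to 34 reads per library.

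Counted together, the tested mitochondrial genes were mostly higher in floral bud than in seedling. Bud against seedling gave 20 higher and 0 lower of 34, where 32.8% of all 20830 tested features were called higher and 12% lower. The 20 were 12 respiratory-chain genes, CCMFC, RPL16, RPS3, MTTB and 4 open reading frames. The median difference was 0.98 over the 34 and 0.27 over all tested features. The rise was larger in Can-0: the median over the 34 was 0.59 within Col-0 and 1.28 within Can-0. Over all tested features it was 0.28 and 0.26. Bud against root gave 12 higher (35.3%) and 1 lower, beside 30.3% and 27% of all features, with a median of 0.56 against 0.02. The share of higher calls in bud against root was thus near the background. Among the 12 was RPL2, which passed the filter only through the bud libraries, so its call there is no separate support. Seedling against root gave 0 higher and 9 lower, beside 18.5% and 41% of all features, and the median of the 34, -0.33, was that of all features. The 9 lower genes were COX2, NAD6, NAD1B, NAD1C, ATP9, CCMFN1, ATMG00030, ATMG00690 and ATMG01000. That share of lower calls was below the background, so seedling against root gave no result about mitochondrial genes beyond the individual members.

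These counts changed when 1 library was left out. Each such fit has fewer residual degrees of freedom than the full fit, which can lower the number of calls whichever library is left out. Calls in bud over seedling also fell without a root library, which is not part of that comparison. The part of the particular library left out in each fall was not tested. In bud over seedling 2 genes were called without Can-0 bud (ATP9 and ATMG01000), 4 without Col-0 bud and 11 without either root library, all of them among the 20. Without Can-0 seedling 8 were called, 7 of them among the 20, and without Col-0 seedling 16, of which 12 were. In bud against root 1 was called without Can-0 root and 3 without Col-0 root, all among the 13. Without Col-0 bud 4 were called, 3 of them among the 13, and without Can-0 bud 2, of which 1 was. ATMG01370 was called in 3 of those 4 fits. In seedling against root 3 were called without Can-0 root, 4 without Col-0 root and 4 without Can-0 seedling, all among the 9, and 6 without Col-0 seedling, of which 5 were. ATMG00030 and COX2 were called in each of these. Quantile normalization left 5, 7 and 3 calls.

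Respiratory-chain genes and open reading frames did not part consistently between organs. In bud minus seedling the median difference was 0.99 over the 16 respiratory-chain genes and 0.75 over the 11 frames, a gap of 0.24. Within Col-0 that gap was -0.42 and within Can-0 0.87, so its sign depended on the accession. In bud minus root the gap was 0.32 (-0.11 in Col-0, 0.58 in Can-0), and in seedling minus root -0.21 (-0.25 and -0.09). Without Can-0 bud the first became -0.26 and the second -0.04, and without Can-0 seedling or Col-0 root the third became 0.16 or 0.23.

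The class medians of the accession difference lay farthest apart in floral bud, positive for the respiratory chain and negative for the open reading frames, a difference between classes that was not tested. No mitochondrial gene was called between Can-0 and Col-0 by limma (0 of 34), where 0.403% of all tested features were called higher and 0.557% lower. At an unadjusted p under 0.05 there were 11 of 34, beside 17.2% of all features. The lowest adjusted p was 0.0899, for NAD1C (1.00 ± 0.15, higher in 3 of 3 organs). The fitted difference was positive in 27 of the 34 and in 16 of the 16 tested respiratory-chain genes, beside 53.8% of all features. ATP6-2, which did not pass the filter, was lower in Can-0. The median fitted difference of Can-0 minus Col-0 was 0.54 for the respiratory chain and -0.05 for the frames, beside 0.02 for all tested features. By organ, the respiratory-chain median was 0.13 in seedlings, 0.55 in root and 0.93 in bud, and the open-frame median 0.12, 0.31 and -0.31. The gap between the classes was thus 0.01, 0.24 and 1.24. Without either bud library the gap in the fit fell from 0.59 to 0.18.

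Within organs, where 1 library stood against 1 and no test is possible, a fold of 1.5 in RPKM + 1 was used as the threshold. In bud 14 of the 34 genes were higher in Can-0 and 3 lower, where 8.54% and 7.32% of all features were. The 14 were 12 of the 16 respiratory-chain genes with RPL16 and RPS3, and the 3 were ATMG00660, ATMG00810 and ATMG01060. In root 9 were higher and 1, MTTB, lower, beside 6.04% and 8.33% of all features. In seedling 3 were higher (NAD9, NAD1C and ATMG01130) and 3 lower (CCMB, MTTB and ATMG01040), beside 9.84% and 8.23%. Can-0 was higher in all 3 organs in 15 of 34 genes, 11 of them of the respiratory chain, beside 22.2% of all features, and lower in all 3 in 1, ATMG00030, beside 19%.

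**Figure D3:**
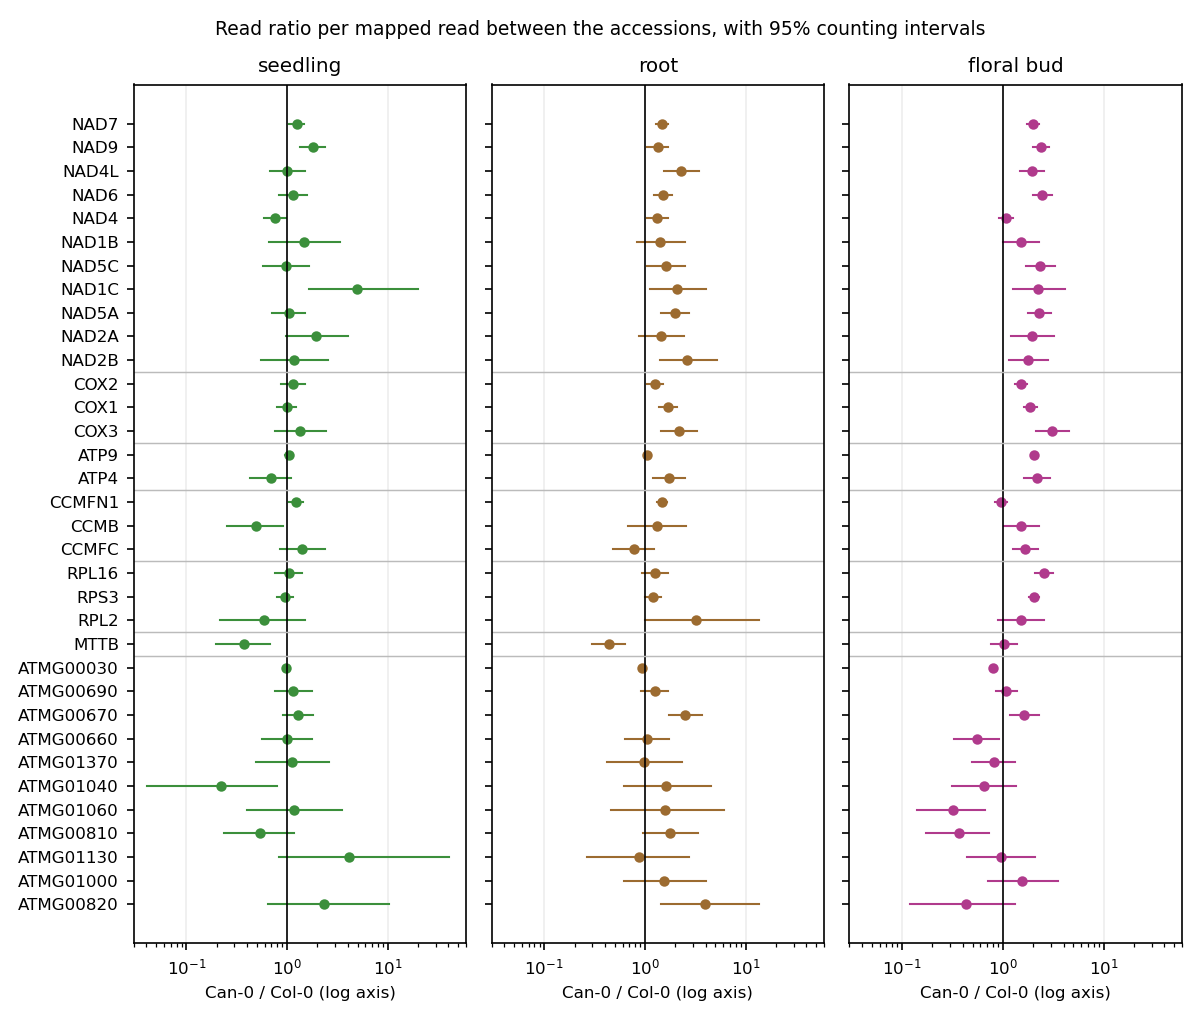
Ratio of Can-0 to Col-0 reads per mapped read (horizontal axis, logarithmic) in seedling, root and floral bud, with 95% counting intervals, for the tested genes with at least 10 reads in the pair. In floral bud most complex I, complex IV and ATP synthase genes lie to the right of 1, near the class median of 1.99, while ATMG00030 lies at 0.805.

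The reads were recovered from the same RPKM, so their ratios add counting intervals and no second measurement. For the 17 respiratory-chain genes with at least 10 reads in a pair, the median ratio of Can-0 to Col-0 per mapped read was 1.14 in seedlings, 1.51 in root and 1.99 in bud. The counting interval lay above 1 in 3, 13 and 14 of them and below 1 in 2, 1 and 1. For open reading frames the median ratio was 1.13 over 10 frames in seedling, 1.39 over 14 in root and 0.771 over 16 in bud, with intervals above 1 in 0, 2 and 1 and below 1 in 1, 1 and 5.

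Single genes differed in where the accessions parted. ATP9 had ratios of 1.05 (0.95 to 1.16) in seedling and 1.04 (0.97 to 1.12) in root but 2.04 (1.94 to 2.15) in bud, on 4251 and 2151 reads. RPS3 and RPL16 likewise had intervals that held 1 in seedling and root, with bud ratios of 2.05 (1.82 to 2.31) and 2.53 (2.06 to 3.13). NAD5A, NAD4L and COX1 parted in root as well, with root ratios of 1.99 (1.46 to 2.76), 2.28 (1.55 to 3.41) and 1.69 (1.38 to 2.09) and bud ratios of 2.29 (1.77 to 2.98), 1.94 (1.47 to 2.57) and 1.87 (1.61 to 2.19). NAD9 was higher in Can-0 in each organ, at 1.80 (1.35 to 2.41), 1.33 (1.04 to 1.71) and 2.40 (2.00 to 2.89). In contrast NAD4 in bud had 1.08 (0.92 to 1.27), CCMFN1 0.960 (0.829 to 1.11) and ATMG00690 1.08 (0.855 to 1.37), and ATMG00030 had 0.805 (0.779 to 0.831).

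The bud libraries came from different sequencing runs, Col-0 from run 36 and Can-0 from run 35, so run and accession cannot be told apart in bud. Both seedling libraries were from run 33 and both root libraries from run 40, and there the median ratios of the respiratory chain were smaller, although NAD4L, NAD2B and NAD4 had a higher ratio in root than in bud and NAD1C in seedling. As no run held libraries of different organs, run and organ cannot be told apart in any comparison of organs. The buds also differed in other RNAs. Pollen markers summed to 711 RPKM in Col-0 and 929 in Can-0, the floral markers to 457 and 573, and the green markers to 3305 and 2554, and the tapetum marker LTP12 stood at 0.161 and 1.33. The part of these differences in the mitochondrial values was not tested.

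Nuclear genes for the same complexes had another order of organs, with root highest for most of them. Of 44 nuclear subunits of complexes I, III and IV and ATP synthase, 41 (93.2%) were lower in seedling than in root (median -1.23), beside 41% of all features. In bud over seedling 13 (29.5%) were higher (median 0.31), near the 32.8% of all features. Against root, 36 of the 44 (81.8%) were lower in bud and 0 higher (median -0.84), beside 27% and 30.3% of all features. Of the 16 mitochondrion-encoded respiratory-chain genes 6 (37.5%, near the background) were higher and 0 lower (median 0.58). The epsilon subunit of ATP synthase stood at 93.0 and 112 RPKM in seedlings, 414 and 357 in root and 176 and 151 in bud, so root was highest and bud exceeded root in neither accession (-1.23 ± 0.17, limma adjusted p = 0.00383). CYTC-1, the soluble electron carrier, stood at 63.0 and 78.4, 269 and 244, and 104 and 89.0 RPKM. Between the accessions 0 of the 44 were called and their median was -0.02. These subunit lists share libraries with the organelle genes, and the difference between the lists was not tested.

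**Figure D4:**
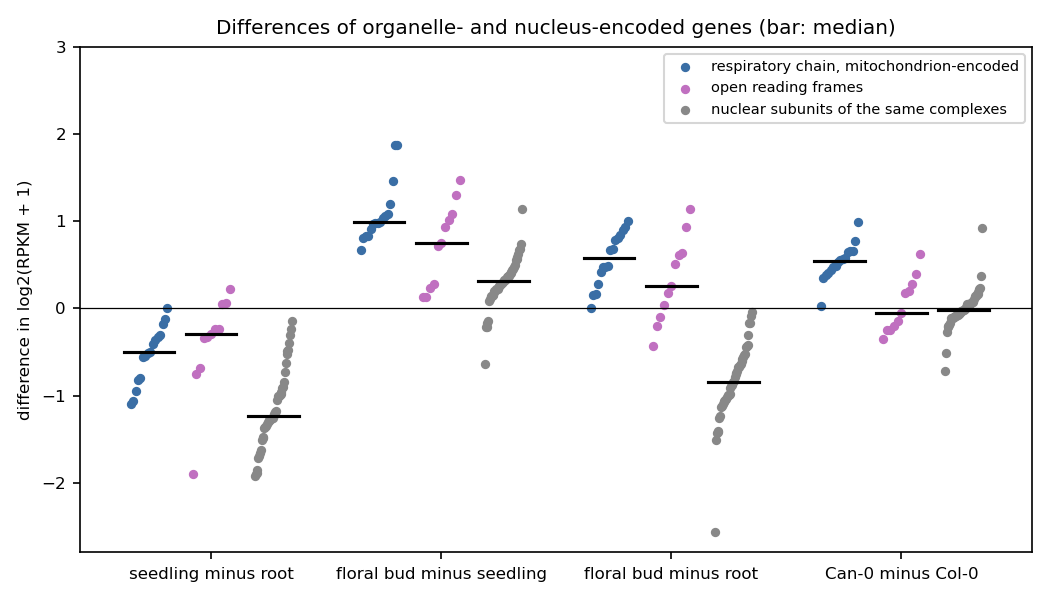
Differences in log2(RPKM + 1) from the fit (vertical axis) for 16 mitochondrion-encoded respiratory-chain genes, 11 open reading frames and 44 nuclear subunits of the same complexes in the 4 comparisons, with 1 point per gene and a bar at each median. In floral bud minus root the organelle genes lie above 0 (median 0.58) and the nuclear subunits below it (median -0.84).

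Complex II (succinate dehydrogenase), which is wholly encoded in the nucleus, had 7 of 8 tested genes lower in seedling than in root and 6 of 8 lower in bud than in root. Of all features, 41% and 27% were called lower in these comparisons. The alternative NADH dehydrogenases and oxidases, which bypass the proton pumps, moved singly. NDA1 stood at 24.8 and 14.1 RPKM in seedlings, 0.148 and 0.488 in root and 9.52 and 9.71 in bud, and NDB2 at 4.60 and 9.35, 63.1 and 56.7, and 16.6 and 24.4. NDA1 was thus highest in seedling and NDB2 in root. NDB3 was a bud gene, with 10.4 and 18.5 RPKM in bud and at most 0.451 elsewhere (3.48 ± 0.21 over root, limma adjusted p = 0.000331). Of the enzymes of organelle RNA turnover, RNR1, an exoribonuclease, stood at 14.9 and 13.1 RPKM in seedlings, 5.31 and 4.92 in root and 8.72 and 8.43 in bud. Its bud level was lower than in seedling (-0.64 ± 0.13, limma adjusted p = 0.0183) and higher than in root (0.65 ± 0.13, limma adjusted p = 0.0132). PNP, a polynucleotide phosphorylase, was lower in bud than in root (-1.07 ± 0.16, limma adjusted p = 0.00539), and bud minus seedling was -0.52 ± 0.16 (limma adjusted p = 0.059). The organelle RNA polymerase genes RPOTM and RPOTMP were called in 0 of the 4 comparisons. The other organelle took a different course: of 76 tested chloroplast-encoded genes, 76 were higher in seedling than in root and 56 lower in bud than in seedling. The shares over all features were 18.5% and 12%.

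Most named protein genes listed at 0 had a counterpart in the nuclear genome. RefSeq's notes name a chromosome 2 gene of the same product for 17 of the 38 named protein genes. Of these 17, 9 were listed at 0 in all 6 libraries and 5 reached 1 RPKM in any, namely ATP9, COX3, CCMFC, NAD2B and RPL2. Of the 21 without such a note, 2 were listed at 0 (MATR and NAD5B) and 18 reached 1 RPKM. Among the open reading frames 18 of 36 with a counterpart and 30 of 69 without one were listed at 0. COB shows how alike the copies are: AT2G07727 on chromosome 2 is identical to COB over all 1182 bases of its coding sequence. Bases 236 to 325 of both are shown, COB from the minus strand of the mitochondrial genome with capitals at the 2 cytidines annotated as edited at more than minor frequency, and AT2G07727 from the plus strand of chromosome 2.
COB: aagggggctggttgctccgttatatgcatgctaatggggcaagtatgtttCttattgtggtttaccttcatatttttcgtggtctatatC
AT2G07727: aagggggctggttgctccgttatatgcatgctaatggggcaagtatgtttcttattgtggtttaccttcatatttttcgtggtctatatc

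The nuclear counterparts of several of these genes were listed above 0. AT2G07727 stood at 1.75 and 0.875 RPKM in seedlings, 2.44 and 3.51 in root and 3.40 and 3.02 in bud while COB was at 0. AT2G07698, the counterpart of ATP1, stood at 2.94 and 3.39, 4.16 and 4.41, and 7.07 and 7.78 RPKM, while ATP1 was at 0. In both, seedling was the lowest organ. AT2G07671, the counterpart of ATP9, stood at 2.95 and 4.29, 11.7 and 12.3, and 9.26 and 17.8 RPKM, with Can-0 above Col-0 in bud as for ATP9. The counterparts of ATP8, ATP6-1, NAD3, NAD2B, CCMFN2 and RPS12 were themselves listed at 0. A read from either copy of an identical pair cannot be assigned by sequence, and how the submitters treated such reads is not given in the sources used here.

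**Figure D5:**
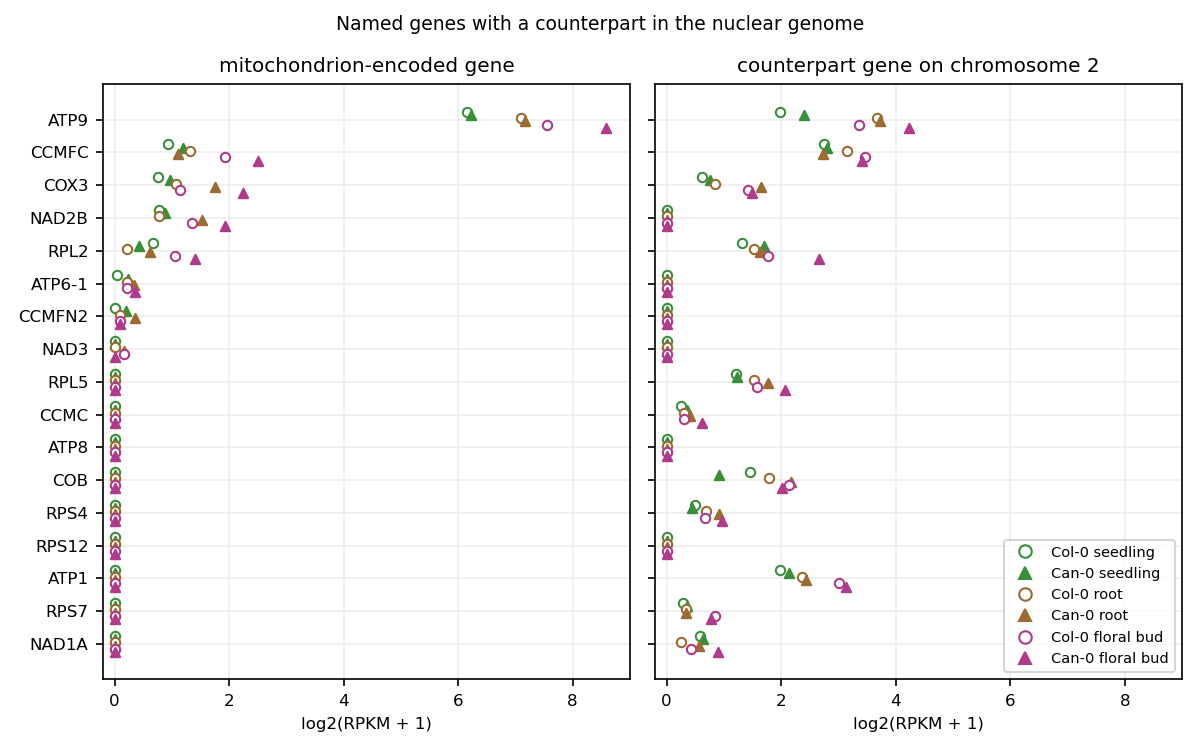
log2(RPKM + 1) of the 17 named mitochondrion-encoded genes with a counterpart on chromosome 2 (left) and of those counterparts (right), with symbols for accession and tissue as in the plot of tested genes. Of the 17 on the left 9 sit at 0 in all libraries, whereas counterparts such as those of ATP1 and COB on the right reach 7.78 and 3.51 RPKM.

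Genes with identical nuclear stretches were found both among those listed at 0, such as COB, and among those measured. The part of such copies in the values of 0 was not tested. All 36-base windows of the coding sequences of NAD4, NAD6, ATP9, COX3, CCMFC, NAD2A and NAD2B occur on a nuclear chromosome in TAIR10.1. So do 96.4% of those of NAD7 and 96.8% of those of CCMFN1, and all these genes were measured in every library. For ATP9 the windows cover its coding sequence of 225 bases and not the whole model of 504. NAD9, COX1, ATP4, CCMB and NAD5C have at most 0.258% of their windows there, so that their values belong to the organelle as far as this reference shows. In bud minus seedling NAD9 (1.20), NAD5C (1.09) and COX1 (0.98) passed the threshold, and ATP4 (1.03) and CCMB (0.88) did not. In RefSeq COX1 has no edited site and CCMB has 51 in 621 bases, of which 35 are not marked as minor, and both genes were measured in every library. ATP1, with 6 edited sites of which 4 are not minor, and CCMC, with 34 of which 27 are not, were listed at 0. The part of editing in these values was not tested.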

How the data were processed

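Poly(A) RNA libraries from 3 organs of Col-0 and Can-0 were compared, 1 library per group. The values are RPKM per gene as deposited by the authors, 28775 features per library. Per the submitters' processing notes the TAIR 9 and TAIR 10 builds were used; the aligner, the way reads were counted and the handling of strand and of multiple matches have no entry in the sources used here. Per the labels' protocols, libraries came from fragmented mRNA by an adapted small RNA kit. Mapped reads per library were recovered from the steps between RPKM values of single-transcript genes, which made 28.7% to 42.9% of low genes whole within 0.01 reads, so the RPKM, not reads, were tested, and reads served only for ratios with 95% counting intervals. The floor of a count of 0 is 3 reads. No column was left unused.

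Features with at least 1 RPKM in at least 2 libraries (20830) were fitted as log2(RPKM + 1) with limma 3.58.1 in R 4.3.3 (terms for organ and accession, trended empirical Bayes, two-sided, Benjamini-Hochberg over all features, threshold 0.05); differences understate changes of low genes. On data simulated for Can-0 minus Col-0 over 20830 features, 100% of genes changed by 1 or 2 in log2 were recovered, with 8 false calls. All simulated features had the same spread, the median of the data, and only features with a mean log2 above 2 were changed. That share therefore does not carry over to lower or more variable genes. In the data NAD1C, at 1.00 ± 0.15, was not called. Summaries used Python 3.11.15, pandas 2.3.3 and scipy 1.17.1. Alternatives were another pseudocount, other filters and scalings, no trend, and leaving out each library.

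The genes, lists and tests were chosen with earlier results of these data known. Every named protein gene is given values, with the 8 open reading frames highest in mean RPKM and the 5 most positive and 5 most negative tested in each comparison, and up to 4 genes of each nuclear list. RPS12 was added and the identifiers of NAD1A and NAD1B exchanged after the files were seen, from RefSeq notes. Gene names are standard names checked against RefSeq notes on chromosome 2 genes and coding lengths in TAIR10.1, whose mitochondrial sequence may differ from the submitters' build. Of 51 recovered model lengths 27 equalled RefSeq's coding length and 7 differed.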

Additional observations from a re-analysis of the deposited data

Results flagged for a closer look

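For CCMB the ratio of Can-0 to Col-0 reads per mapped read was 1.53 (95% counting interval 1.03 to 2.27) in floral bud and 0.488 (0.252 to 0.909) in seedling, so the accessions were on opposite sides of 1 in the 2 organs. NAD4 did the same between root, at 1.32 (1.04 to 1.68), and seedling, at 0.758 (0.593 to 0.966). The difference between the organs was not tested in either gene, as each ratio compares 1 library with 1.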

How the results depend on the processing

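No paired analysis was possible because each group has 1 library and all libraries share 1 replicate number, so no replicate block could be added; the fit already pairs libraries through its terms for organ and accession. Of the 110 genes under 1 RPKM in all libraries, 62 were listed at 0 throughout, and ATP6-2 held 2 to 30 reads per library. For those with few reads, 1 read can decide whether a gene is listed at 0. The part of depth in the values of 0 was not tested. The number of mitochondrial genes called (9 in seedling minus root, 20 in bud minus seedling, 13 in bud minus root) was 3, 5 and 7 after quantile normalization, which moved the median of all features by 0.25, -0.42 and -0.19 and turned the higher and lower calls over all features from 3849 and 8549 to 4851 and 6430, from 6837 and 2499 to 3730 and 5250, and from 6309 and 5623 to 5447 and 7301. With values rescaled to the mitochondrial total, which moved the median of all features by 1.33 and -1.27 in the first 2 comparisons, 18 and 4 were called; all 18 were higher. A mean of at least 5 RPKM left 12 in bud minus seedling, with 15 genes tested. Leaving out 1 library gave 3 to 8, 2 to 16 and 1 to 15. Between the accessions 0 were called in all 13 alternatives run.

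The gap between respiratory-chain and open-frame medians in seedling minus root was -0.036 with a pseudocount of 0.1, 0.77 with a mean of at least 5 RPKM, 0.075 rescaled to the mitochondrial total and -0.63 to 0.23 with 1 library left out. In bud minus seedling it was -0.037, -0.34 and -0.069 under those 3 settings and -0.30 to 0.79 with 1 library left out, and in bud minus root -0.035 to 0.58. The cause was not tested. In Can-0 minus Col-0 it was positive in all alternatives run, 0.18 to 0.83.

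Genes with a nuclear counterpart in RefSeq's notes, or at least 50% of 36-base windows on a nuclear chromosome, were left out (65 genes). The sums were then 436 and 435 RPKM in seedlings, 1502 and 1449 in root and 1272 and 1135 in bud. ATMG00030, which was not matched to a RefSeq frame, stayed in and made up most of each sum. Only 65 of the 146 genes were matched to a RefSeq feature, so the others were judged by the notes alone. The sums without ATMG00030, chosen after seeing the data, were 179.8 and 193, 279.5 and 349, and 393 and 709. The shares without chloroplast genes and AT2G01021 were 0.0823% and 0.0842%, 0.254% and 0.251%, and 0.227% and 0.250%.

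Rescaling to the mitochondrial total, which is mostly ATMG00030, turned seedling minus root positive for COX2 (0.37), NAD6 (0.39), NAD1C (0.23), ATMG00690 (0.64), CCMFN1 (0.58), ATP9 (0.65) and NAD1B (0.47). It turned bud minus seedling negative for ATMG00030 (-0.033), NAD5C (-0.14), NAD9 (-0.20), RPL16 (-0.27), RPS3 (-0.22), NAD6 (-0.30), NAD2A (-0.38), NAD7 (-0.50), NAD1C (-0.012), NAD4 (-0.32), NAD2B (-0.046), COX1 (-0.35) and ATMG01370 (-0.051). Quantile normalization turned NAD2A in bud minus seedling to -0.027.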
